A study of Mus musculus with 6 samples.

Results

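Iron recycling, iron storage and its hormone hepcidin were followed through 10 genes, Slc40a1, Ftl1, Fth1, Hamp, Tfrc, Slc11a1, Slc11a2, Hmox1, Ncoa4 and Cp, in RNA from mouse liver macrophages. The genes were taken by symbol from the deposited gene table. All 10 were among its 14918 genes, and all 10 were among the 14361 that passed the filter on low counts and were tested. The libraries came from C57BL/6 mice, 3 of which had been fed a high fat diet and 3 a normal diet for 18 weeks from an age of about 6 weeks. The isolation of the macrophages, and any sort, were not described in the sources used here. The libraries are called high fat diet 1 to 3 and normal diet 1 to 3 below.

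Macrophages of the liver and spleen take up old red cells, break down haemoglobin and return its iron to the blood. Haem oxygenase (Hmox1) opens the haem ring, ferritin, built from heavy (Fth1) and light (Ftl1) chains, stores the released iron, and ferroportin (Slc40a1), the only known iron exporter of mammalian cells, carries it out. Hepcidin (Hamp), a peptide hormone made mainly by hepatocytes, binds ferroportin and causes its loss from the cell surface, so that high hepcidin keeps iron inside macrophages. Messages of several of these genes carry a short hairpin, the iron responsive element, to which the iron regulatory proteins bind when iron is scarce. Binding near the 5′ end blocks translation, and binding in the 3′ untranslated region of Tfrc, the transferrin receptor gene, protects the message from decay.

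The hairpins are shown because their place in the message is known to set whether iron acts on translation or on the stability of the message. A search of the GENCODE M21 transcripts (GRCm38, the build called mm10) for the 6-base loop CAGTGN, closed by 5 base pairs above an unpaired C and by at least 4 of 6 pairs below it, found the element in 4 of the 10 members. It was in the 5′ untranslated region of Slc40a1, Ftl1 and Fth1 and at 4 places in the 3′ untranslated region of Tfrc. Of 13072 tested coding genes, 41 (0.314%) held such an element anywhere in a transcript, 6 of them in the 5′ untranslated region and 16 in the 3′ untranslated region. Sequences run 5′ to 3′ on the strand of the message, with the loop in capitals.
Slc40a1, chr1:45925465-45925493, minus strand: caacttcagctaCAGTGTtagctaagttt
Ftl1, chr7:45459779-45459807, minus strand: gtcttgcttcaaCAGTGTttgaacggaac
Fth1, chr19:9982732-9982760, plus strand: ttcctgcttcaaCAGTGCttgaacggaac
Tfrc, chr16:32631219-32631247, plus strand: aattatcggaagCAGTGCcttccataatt
Tfrc, chr16:32631598-32631626, plus strand: cattatcgggagCAGTGTcttccataatg
Tfrc, chr16:32631663-32631691, plus strand: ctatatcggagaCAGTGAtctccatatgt
Tfrc, chr16:32631710-32631738, plus strand: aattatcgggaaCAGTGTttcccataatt
Slc11a2, known to have an isoform with such an element in its 3′ untranslated region, gave no match under these rules, so the list does not cover every known element. A match to these letters is a description of the transcript, and binding was not measured. RNA levels alone were available, so nothing below speaks of ferritin, ferroportin or receptor protein.

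Iron storage and recycling genes were among the most abundant messages of these libraries, while Slc11a2 and Tfrc were the lowest of the 10. Levels of different genes were set side by side as the deposited FPKM (fragments per kilobase of gene, scaled to library depth), averaged over the 6 libraries. Ftl1 had 7711 FPKM, rank 2 of all 14918 genes, and Fth1 had 3525, rank 7. Hmox1 followed at 786 FPKM (rank 52) and Slc40a1 at 733 (rank 60), and this neighbouring pair did not differ beyond the spread, since Hmox1 lay above Slc40a1 in 3 of the 6 libraries. Slc11a1, a gene for a divalent metal transporter of the phagosome membrane, was at 332 FPKM. Whether its protein works in these mice was not tested. Ncoa4, the receptor that delivers ferritin to the lysosome, was at 80.1 FPKM.

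Hamp averaged 53.3 FPKM, with Ncoa4 above it in 4 libraries. Cp, the plasma ferroxidase ceruloplasmin, was at 14.8, below Hamp in 5 libraries. Slc11a2, the transporter that moves iron out of the endosome, was at 7.74 and Tfrc at 7.37, and their order held in only 4 of the 6 libraries. Near-identical copies could have taken ferritin reads. The pseudogenes Ftl1-ps1 and Fth-ps2 held between 248 and 549 and between 13 and 21 reads per library, against 122063 to 182642 reads for Ftl1 and 50443 to 81344 for Fth1.

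**Figure D1:**
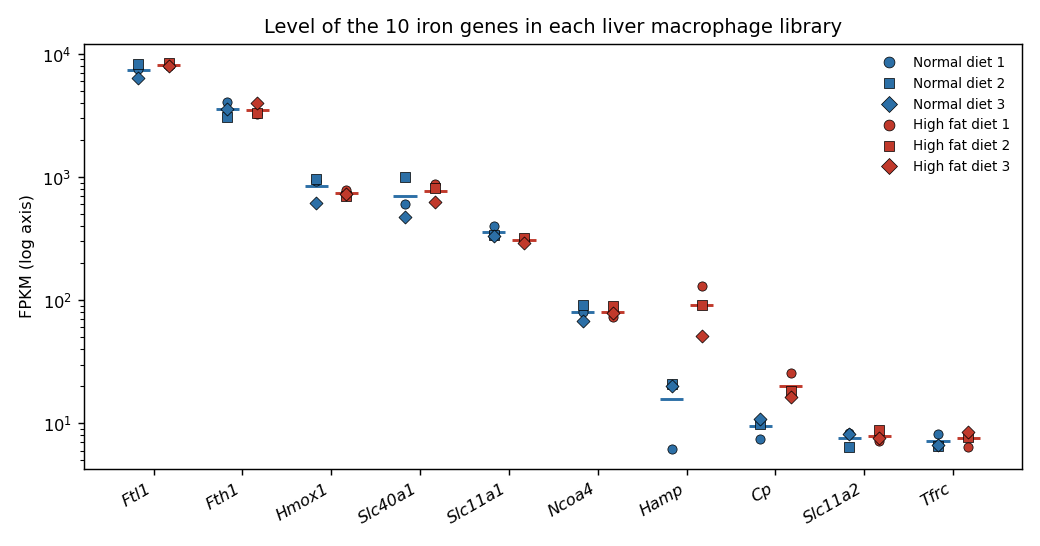
Deposited FPKM of the 10 iron genes on a log axis, with 1 point per library (blue for the normal diet, red for the high fat diet, symbols for replicates) and a line at each group mean of 3 libraries. Hamp and Cp are the genes whose red points all lie above the blue points, and Ftl1 and Fth1 stand highest in every library.

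Between the diets, Hamp and Cp stood higher on the high fat diet and the other 8 genes lay close to the level on the normal diet, but none of the 10 passed the test. In edgeR's quasi-likelihood test 0 of the 10 had an adjusted p under 0.05, with Benjamini-Hochberg adjustment over all 14361 genes, of which 91 passed, a background of 0.634%. At an unadjusted p under 0.05 there were 2 of the 10, Hamp and Cp, against 18.6% of all genes. DESeq2 on the same counts called those 2, both higher (background 8.08%, or 4.96% higher), as did the authors' deposited table (background 7.98%), and limma voom called 0, with the same number, 2, at an unadjusted p under 0.05. The median log2 fold change of the 10 was 0.03, beside -0.00026 over all genes. The groups did not overlap in 3 of the 10 (25.3% of all genes). In 2 genes all high fat diet libraries lay above all normal diet libraries (14.5% of all genes did) and in 1, Slc11a1, all lay below (10.8%). Levels below are CPM, counts scaled to one common library size adjusted by the trimmed mean of M-values (TMM), and fold changes are high fat diet over normal diet.

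These comparisons stood on a total count of 17470439 to 23610956 per library. Alb, the hepatocytes' most abundant message, was in every library, and the summed CPM of 31 hepatocyte markers was 829.9 to 3709 on the normal diet and 6954 to 11907 on the high fat diet. None of the 31 was at 0, all 31 had positive log2 fold changes and 1 passed (0.634% of all genes did). The Kupffer cell marker Clec4f (Kupffer cells are the resident macrophages of the liver) was at 5966 to 10382 CPM on the normal diet and 5835 to 7441 on the high fat diet. Markers of recruited monocytes, 6 genes, summed to 380.5 to 563.1 and 1277 to 1591 CPM, and 2 of the 6 passed, both higher (0.446% of all genes did). In whole-sample RNA, fewer cells of a type and less RNA per cell cannot be told apart.

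Hepcidin showed the largest difference of the 10 genes. Hamp (ENSMUSG00000050440, chromosome 7, 30942371 to 30944017, minus strand, mm10) was at 2.47, 8.16 and 7.86 CPM in normal diet 1 to 3 and at 50.8, 35.2 and 20.1 in high fat diet 1 to 3. Normal diet 1 was lowest and high fat diet 1 highest, and the groups did not overlap. The means were 6.16 ± 3.20 and 35.4 ± 15.3 CPM (SD, n = 3), with a fold of 5.73 (log2 2.52 ± 0.53 SE, 95% interval 1.23 to 3.81) that did not pass (edgeR adjusted p = 0.0909). DESeq2 gave 2.52 ± 0.47 with an adjusted p of 1.0e-05, and the authors' deposited table lists a log2 fold change of 1.87 with an adjusted p of 7.88e-06.

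The same libraries ranked in the same order by Alb as by Hamp. Alb was at 350, 1715 and 1387 CPM in normal diet 1 to 3 and at 5032, 3169 and 3085 in high fat diet 1 to 3. From its lowest to its highest library Alb spanned 14.4-fold and Hamp 20.6-fold. Set against Alb in each library, Hamp reads per 1000 Alb reads were 7.07, 4.76 and 5.67 in normal diet 1 to 3 and 10.1, 11.1 and 6.53 in high fat diet 1 to 3. These ratios overlapped between the diets, at 5.83 ± 1.16 and 9.24 ± 2.40 (SD, n = 3). An exact two-sided permutation test of that difference gave p = 0.2, where 0.1 is the smallest that 3 against 3 allows (0.433 after Benjamini-Hochberg adjustment over the 13 ratios compared). When the hepatocyte score, the mean log2 CPM of the hepatocyte markers, entered the fit as a covariate, the log2 fold change of Hamp was 0.93 ± 0.36 (SE, edgeR unadjusted p = 0.0421, adjusted p = 0.720). The score of every high fat diet library lay above that of every normal diet library, so score and diet cannot be fully told apart in that fit.

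**Figure D2:**
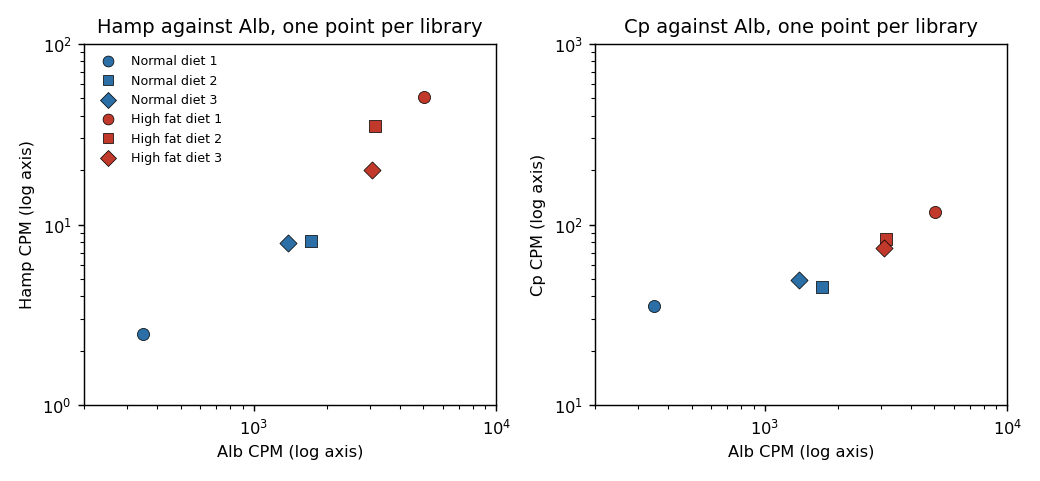
CPM of Hamp (left) and Cp (right) against CPM of Alb, both on log axes, with 1 point per library coloured by diet. Hamp spans 20.6-fold and Cp 3.31-fold over the same 14.4-fold span of Alb.

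Hamp2, the second hepcidin gene of the mouse, whose peptide is not known to act on iron, lies on the same chromosome (30922372 to 30924181). Whether reads were split between Hamp and Hamp2 was not tested. Hamp2 held 6, 1 and 6 reads in normal diet 1 to 3 and 39, 39 and 54 in high fat diet 1 to 3. These were 0.218 ± 0.143 and 2.11 ± 0.223 CPM (SD, n = 3). The groups did not overlap, and the log2 fold change of 3.23 ± 0.50 (SE) narrowly missed the threshold (edgeR adjusted p = 0.0509). It passed in DESeq2 (5.86e-06), which called 8.08% of all genes. Without normal diet 2 it also passed (0.0109), as did 1385 of the 14669 genes tested there. In the fit with the hepatocyte score, the log2 fold change was 3.93 ± 0.88 (adjusted p = 0.489). Set against Alb, the groups overlapped: Hamp2 reads per 1000 Alb reads were 0.866, 0.0307 and 0.215 in normal diet 1 to 3 and 0.369, 0.697 and 0.737 in high fat diet 1 to 3 (exact two-sided permutation p = 0.5, adjusted 0.722). Normal diet 1, with 6 Hamp2 reads, had the highest of these ratios.

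The stretch of the Hamp promoter just upstream of the start is shown for its motifs. They belong to known inputs to hepcidin, the BMP signal of iron stores and the interleukin-6 signal of inflammation. The sequence is from RefSeq (GRCm38.p6, chr7:30944030-30944279, minus strand) and runs 5′ to 3′, with the matches in capitals.
Hamp promoter: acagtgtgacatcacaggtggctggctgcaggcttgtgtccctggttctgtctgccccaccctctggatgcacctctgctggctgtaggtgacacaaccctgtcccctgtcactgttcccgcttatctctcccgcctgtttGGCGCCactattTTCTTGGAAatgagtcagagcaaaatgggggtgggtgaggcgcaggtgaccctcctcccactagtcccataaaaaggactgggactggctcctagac
GGCGCC, the core of a BMP response element, begins at -109 from the RefSeq start and TTCNNNGAA, a STAT site, at -97. Both read the same on either strand and do not overlap here. Windows of this length upstream of 32851 RefSeq starts held GGCGCC in 9.59% and TTCNNNGAA in 7.02%. Among the windows of the other members searched, GGCGCC was also in a window of Tfrc, at -89, and TTCNNNGAA was in none. A match in the letters does not show that a factor was bound.

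Il6 and Bmp6, which encode inputs to hepcidin, stood lower on the high fat diet but did not pass. Of 21 genes listed for hepcidin and its control, 20 were tested, 0 passed in edgeR, and by unadjusted p under 0.05, 3 stood higher and 6 lower, against 18.6% of all genes in either direction. DESeq2 called 4 of the list, Hamp, Hamp2, Bmp6 and Il6, against 8.08% of all genes. Il6, the cytokine interleukin-6, was at 42.8, 23.5 and 25.8 CPM in normal diet 1 to 3 and at 15.1, 17.1 and 11.6 in high fat diet 1 to 3. All high fat diet libraries were lower, with a log2 fold change of -1.08 ± 0.27 (SE, edgeR adjusted p = 0.115). Adding the hepatocyte score to the fit gave -0.40 ± 0.32 (adjusted p = 0.861). Named after its values were seen, Bmp6, the ligand by which liver endothelial cells report iron stores to hepatocytes, was at 25.6, 20.2 and 69.2 CPM on the normal diet and at 14.2, 15.3 and 13.8 on the high fat diet. Normal diet 3 was far above the rest. The log2 fold change was -1.41 ± 0.47 (SE, edgeR adjusted p = 0.190), and -0.66 ± 0.15 without normal diet 3 (adjusted p = 0.114). With the hepatocyte score it was -2.04 ± 0.70 (adjusted p = 0.677).

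Sinusoidal endothelial markers, 7 genes with none at 0, all had negative log2 fold changes (median -0.76). They summed to 2678, 2422 and 4269 CPM in normal diet 1 to 3 and to 1840, 2223 and 2154 in high fat diet 1 to 3. Their part in the Bmp6 values was not tested. Also named after their values were seen, Tfr2, the iron sensor of hepatocytes, was at 7.66 ± 5.18 and 30.8 ± 13.8 CPM, and Tmprss6, the liver protease that restrains hepcidin, at 8.14 ± 5.50 and 33.8 ± 15.98 CPM (normal diet first, SD, n = 3). Neither passed (edgeR adjusted p = 0.176 and 0.185). Once the hepatocyte score was in the fit, the log2 fold change went from 2.01 to 0.0035 for Tfr2 and from 2.05 to -0.12 for Tmprss6.

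Ceruloplasmin stood higher by a smaller factor. Cp (ENSMUSG00000003617, chromosome 3, 19957054 to 20009145, plus strand) was at 35.3, 45.3 and 49.5 CPM in normal diet 1 to 3 and at 117, 83.0 and 74.0 in high fat diet 1 to 3. The groups did not overlap, and normal diet 1 was again lowest and high fat diet 1 highest. The means were 43.4 ± 7.33 and 91.3 ± 22.6 CPM (SD, n = 3), a fold of 2.10 (log2 1.07 ± 0.21 SE, 95% interval 0.58 to 1.57, edgeR adjusted p = 0.0770). DESeq2 gave 1.07 ± 0.23 with an adjusted p of 0.000167, and the authors' deposited table lists 0.99 with 0.000174. Given the hepatocyte score as a covariate, the log2 fold change was 0.53 ± 0.22 (SE, edgeR unadjusted p = 0.0527, adjusted p = 0.754).

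Cp did not scale with Alb as Hamp did. Cp reads per 1000 Alb reads were 101 in normal diet 1, the library with the lowest hepatocyte score, 26.4 in normal diet 2 and 35.7 in normal diet 3. In high fat diet 1 to 3 they were 23.2, 26.2 and 23.99, so all high fat diet libraries lay below all normal diet libraries (exact two-sided permutation p = 0.1, the smallest possible, adjusted 0.433). Ceruloplasmin is a plasma protein of hepatocytes, and macrophages also make it, in part in a form held at the cell surface. The Cp model overlaps Hps3, a gene on the opposite strand, by 13201 bases, of which 108 are exonic in both in GENCODE M21, and no strand-keeping step stands in the protocol. Hps3 was at 115 ± 16.8 and 111 ± 2.71 CPM (normal diet first, SD, n = 3). How many Cp reads came from Hps3 was not tested.

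**Figure D3:**
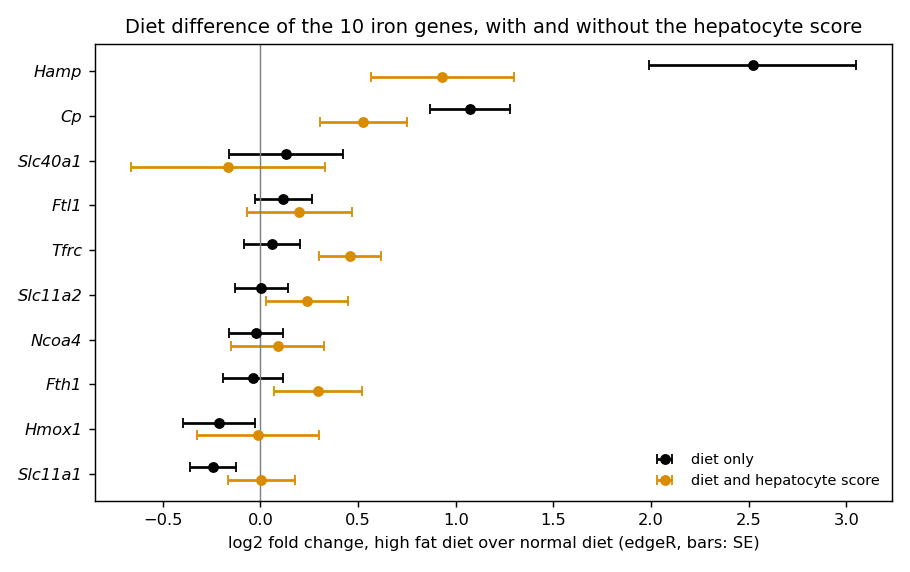
Log2 fold change of each of the 10 genes, high fat diet over normal diet, with bars for the SE, from edgeR with diet alone (black) or with diet and hepatocyte score (orange). Hamp goes from 2.52 to 0.93 and Cp from 1.07 to 0.53, while Tfrc goes from 0.06 to 0.46.

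Ferroportin varied more within the normal diet than between the diets. Slc40a1 (ENSMUSG00000025993, chromosome 1, 45908068 to 45926523, minus strand) was at 2435, 3960 and 1858 CPM in normal diet 1 to 3 and at 3428, 3158 and 2445 in high fat diet 1 to 3. The highest and the lowest library were both on the normal diet. The means were 2751 ± 1086 and 3010 ± 508 CPM (SD, n = 3), and the fold of 1.09 had a 95% interval of 0.675 to 1.77 (log2 0.13 ± 0.29 SE, edgeR adjusted p = 0.849). Without normal diet 2 the log2 fold change was 0.47 ± 0.20 (adjusted p = 0.166) and without normal diet 3 it was -0.09. Normal diet 2 also had the highest and normal diet 3 the lowest sum of 6 Kupffer cell markers, 21071 and 12986 CPM. Cd163, the scavenger receptor for haemoglobin bound to haptoglobin, named after its values were seen, was at 3173 CPM in normal diet 2 and 1170 in normal diet 3, the ends of its range too. The part of the Kupffer markers in the Slc40a1 values was not tested.

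Haem oxygenase lay slightly lower on the high fat diet. Hmox1 (ENSMUSG00000005413, chromosome 8, 75093591 to 75100596, plus strand) was at 1533, 1560 and 986 CPM in normal diet 1 to 3 and at 1237, 1119 and 1159 in high fat diet 1 to 3. Normal diet 3 was below every high fat diet library and the other two were above. The fold was 0.862, with a 95% interval of 0.636 to 1.17 (log2 -0.21 ± 0.18 SE, edgeR adjusted p = 0.576). Without normal diet 3 the log2 fold change was -0.40 ± 0.10 (adjusted p = 0.134), and in the fit with the hepatocyte score it was -0.01.

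The ferritin chains differed between the diets by less than their spread. Ftl1 (ENSMUSG00000050708, chromosome 7, 45457944 to 45459884, minus strand), the light chain, which helps the iron core to form, was at 7423, 8012 and 6072 CPM in normal diet 1 to 3 and at 7626, 8013 and 7692 in high fat diet 1 to 3. Fth1 (ENSMUSG00000024661, chromosome 19, 9982703 to 9985092, plus strand), the heavy chain, which oxidises iron, was at 3588, 2656 and 3056 and at 2771, 2856 and 3426. Both sets of groups overlapped. The fold was 1.08 for Ftl1 (95% interval 0.853 to 1.38, edgeR adjusted p = 0.708) and 0.973 for Fth1 (0.754 to 1.26, adjusted p = 0.918), and Fth1 turned to a log2 fold change of 0.29 with the hepatocyte score as a covariate. In FPKM, Ftl1 was 1.85, 2.70 and 1.78 times Fth1 in normal diet 1 to 3 and 2.46, 2.51 and 2.01 times in high fat diet 1 to 3.

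Ncoa4 (ENSMUSG00000056234, chromosome 14, 32159865 to 32179855, plus strand), through which ferritin is broken down, was at 336, 377 and 273 CPM in normal diet 1 to 3 and at 293, 358 and 320 in high fat diet 1 to 3. The groups overlapped, with a fold of 0.985 (95% interval 0.783 to 1.24, edgeR adjusted p = 0.952). The log2 fold change was -0.02 with TMM scaling and 0.0047 with total counts, so it had no stable sign. Of the 6 genes listed for storage and ferritin turnover, 0 passed in edgeR, 0 had an unadjusted p under 0.05 (18.6% of all genes) and DESeq2 called 0 (8.08%). Pcbp1, a chaperone that loads iron into ferritin, was at 239 ± 5.37 and 252 ± 9.01 CPM and Herc2, the ligase that marks NCOA4 for degradation, at 152 ± 10.3 and 158 ± 2.62 CPM (normal diet first, SD, n = 3).

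Of the members on the uptake list, Slc11a1 was slightly lower and Slc11a2 and Tfrc did not move beyond their spread. Slc11a1 (ENSMUSG00000026177, chromosome 1, 74375195 to 74386062, plus strand), known as Nramp1, was at 1128, 925 and 899 CPM in normal diet 1 to 3 and at 839, 867 and 788 in high fat diet 1 to 3. All high fat diet libraries lay below all normal diet libraries, by a fold of 0.845 (95% interval 0.697 to 1.02, log2 -0.24 ± 0.12 SE, edgeR adjusted p = 0.319). In the fit with the hepatocyte score, the log2 fold change was 0.0052. Slc11a2 (ENSMUSG00000023030, chromosome 15, 100387898 to 100425072, minus strand), its paralog DMT1, was at 37.8, 28.4 and 36.2 CPM and at 31.2, 38.4 and 33.1, a fold with a 95% interval of 0.801 to 1.25. Its sign changed between scalings, at 0.0032 with TMM and -0.0070 with median-ratio factors on the log2 scale.

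Tfrc (ENSMUSG00000022797, chromosome 16, 32608920 to 32632794, plus strand), which takes up transferrin-bound iron and is high in dividing and erythroid cells, was at 41.3, 32.2 and 32.6 CPM in normal diet 1 to 3 and at 31.2, 37.5 and 41.7 in high fat diet 1 to 3. The groups overlapped, with a fold of 1.04 (95% interval 0.820 to 1.32, edgeR adjusted p = 0.864). Once the hepatocyte score was in the fit, its log2 fold change was 0.46 ± 0.16 (SE, unadjusted p = 0.0272, adjusted p = 0.674). Markers of dividing cells, 8 genes with none at 0, summed to 281, 184 and 224 CPM in normal diet 1 to 3 and to 196, 346 and 210 in high fat diet 1 to 3. Of 10 erythroid markers 4 were among the genes analysed here, none at 0, and they summed to 13.2 to 19.7 CPM on the normal diet and 23.6 to 37.7 on the high fat diet. The globin genes Hba-a1 and Hbb-bs were at 1.84 to 6.39 and 2.36 to 6.58 CPM over the 6 libraries. Their part in the Tfrc values was not tested.

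In the wider set of iron genes 1 of 65 tested rose and none fell on the high fat diet (edgeR adjusted p under 0.05, background 0.446% higher and 0.188% lower). By unadjusted p under 0.05, 14 stood higher and 7 lower (18.6% of all genes in either direction), and DESeq2 called 9 higher and 2 lower (8.08% of all genes, or 4.96% higher). The median log2 fold change of the 65 was 0.03. The gene that passed was Alas1 (ENSMUSG00000032786, chromosome 9, 106233455 to 106248126), the first and rate-limiting enzyme of haem synthesis outside red cells. It was at 42.1, 35.7 and 50.5 CPM in normal diet 1 to 3 and at 155, 128 and 109 in high fat diet 1 to 3, with no overlap. It rose 3.05-fold (log2 1.61 ± 0.17 SE, edgeR adjusted p = 0.0351). The call ended without any of high fat diet 1, 2 or 3 or normal diet 1, where the adjusted p was 0.0978 to 0.148 while the log2 fold change was 1.45 to 1.72, and once the hepatocyte score was in the fit, at 1.43 ± 0.30 (0.469). Alas1 held 834, 678 and 1016 reads in normal diet 1 to 3, where Alb held 6932, 32578 and 27873. In high fat diet 1 to 3 Alas1 held 3247, 2254 and 2590 reads and Alb 105568, 55969 and 73247. Which cells the Alas1 reads came from was not tested. Without normal diet 2 the count of the 65 was 10, 5 higher and 5 lower. In that fit 1385 of 14669 genes passed, 519 higher and 866 lower. The other 7 genes for mitochondrial iron, haem synthesis and iron-sulphur clusters did not pass.

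**Figure D4:**
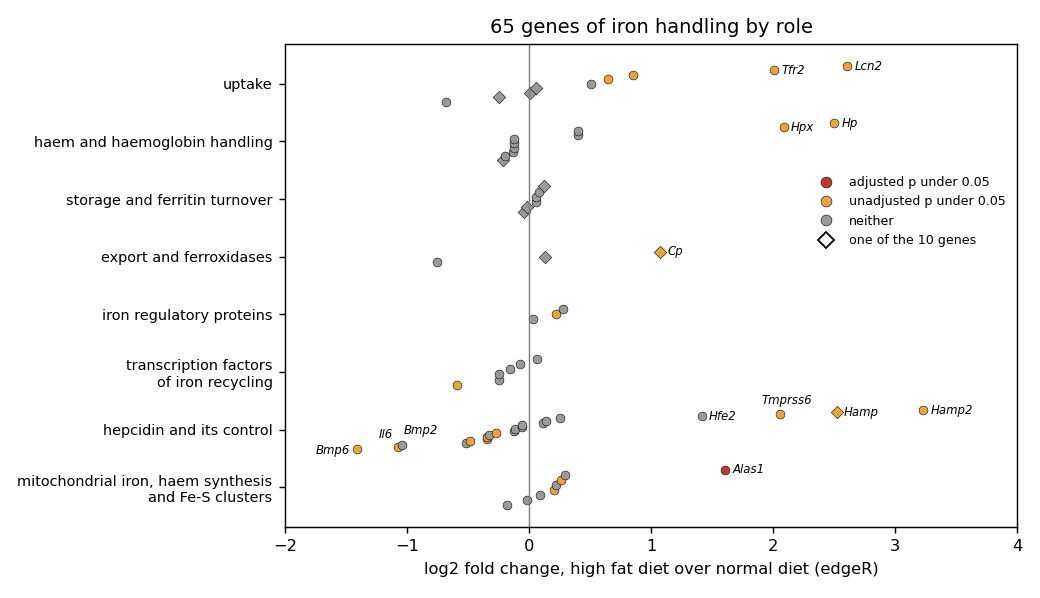
Log2 fold change, high fat diet over normal diet, of 65 tested genes of iron handling grouped by role, with diamonds for the 10 main genes and colours for the edgeR p-values. Alas1 alone is past an adjusted p of 0.05, and genes with an absolute log2 fold change above 1 are labelled.

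In the haem and haemoglobin list the genes furthest apart encode plasma proteins. Of its 10 genes 0 passed in edgeR and 2 had an unadjusted p under 0.05 (DESeq2 adjusted: the same 2), Hp and Hpx, whose products bind free haemoglobin and free haem. The shares of all genes were 18.6% by unadjusted p under 0.05 and 8.08% in DESeq2. Hp was at 15.8, 55.1 and 60.6 CPM in normal diet 1 to 3 and at 311, 196 and 237 in high fat diet 1 to 3. Per 1000 Alb reads Hp was at 45.2, 32.1 and 43.7 and at 61.7, 61.8 and 76.9, so that the groups stayed apart (exact two-sided permutation p = 0.1, the smallest possible, adjusted 0.433). Hpx was at 45.9 ± 29.6 and 195 ± 59.1 CPM, and at 39.6 ± 9.19 and 51.8 ± 5.94 per 1000 Alb reads, where the groups overlapped (normal diet first, SD, n = 3). The hepatocyte score in the fit took the log2 fold change of Hp from 2.4997 to 1.03 ± 0.20 (SE, edgeR adjusted p = 0.448) and that of Hpx from 2.09 to 0.30 ± 0.23 (0.857).

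The uptake list, 9 genes, had 0 calls in edgeR and 4 genes higher at an unadjusted p under 0.05 (DESeq2 adjusted: Tfr2, Slc39a14 and Lcn2). Over all genes 18.6% had an unadjusted p under 0.05 in either direction, and DESeq2 called 4.96% higher. Lcn2 binds iron-loaded siderophores and is also a neutrophil granule protein. It was at 0.807, 0.421 and 1.39 CPM in normal diet 1 to 3, on 16, 8 and 28 reads. In high fat diet 1 to 3 it was at 7.05, 4.13 and 4.93 CPM, on 148, 73 and 117 reads. The log2 fold change was 2.61 ± 0.44 (SE, edgeR adjusted p = 0.0613), and 2.14 ± 0.76 in the fit with the hepatocyte score (adjusted p = 0.677). Neutrophil markers, 7 genes with none at 0, summed to 9.47 to 42.2 CPM on the normal diet and 84.7 to 114 on the high fat diet. In edgeR 3 of the 7 passed, against 0.634% of all genes, and the part of these markers in Lcn2 was not tested. Steap3, which reduces iron in the endosome, was at 9.91 ± 2.07 and 15.5 ± 1.51 CPM without overlap (adjusted p = 0.139). Both Lcn2 and Steap3 passed without normal diet 2 (0.0177 and 0.0436), a fit in which 1385 of 14669 genes passed.

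None of the regulators of iron genes passed. Of the 3 genes for iron regulatory proteins and their control 0 passed in edgeR and 1 had an unadjusted p under 0.05 (DESeq2 0). For this list and those that follow, the shares of all genes were 18.6% by unadjusted p under 0.05 and 8.08% in DESeq2. Ireb2, which encodes iron regulatory protein 2, was at 58.8, 61.3 and 59.2 CPM in normal diet 1 to 3 and at 73.9, 66.6 and 68.6 in high fat diet 1 to 3 (log2 0.22 ± 0.07 SE, edgeR adjusted p = 0.167). Aco1, whose protein is aconitase or iron regulatory protein 1 by its iron-sulphur cluster, was at 94.0 ± 15.8 and 114 ± 3.92 CPM (adjusted p = 0.289). Of 6 transcription factors tied to iron recycling 0 passed and 1 had an unadjusted p under 0.05 (DESeq2 0). Mafk, a small partner of NRF2 and BACH1, was at 99.3 ± 24.9 and 66.0 ± 5.32 CPM, and Bach1, the haem-sensing repressor of Hmox1, at 168 ± 31.2 and 141 ± 12.0 CPM (normal diet first, SD, n = 3, adjusted p = 0.179 and 0.411). Mafk, Bach1 and Aco1 passed without normal diet 2 (0.00591, 0.0421 and 0.0338), as did 1385 of the 14669 genes tested there. Of 3 genes for export, Heph, a membrane ferroxidase, was low, at 3.81 ± 1.97 and 2.26 ± 0.50 CPM, and 0 of the 3 passed (1 at an unadjusted p under 0.05, Cp, which DESeq2 called).

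By likeness across the 6 libraries, the genes nearest to Hamp among 10538 with a mean of at least 5 CPM were Bckdha, Upp2 and Pigr, with a Pearson r of log2 CPM of 0.996 to 0.999. The nearest to Cp were Acat1, Vwa8 and Gstt1 (0.997 to 0.9995). For Slc40a1 they were Sult1a1, Zbtb4 and Scamp5 (0.989 to 0.995), and for Hmox1 Ptpn1, Gng2 and Wwox (0.982 to 0.991). The nearest to Ftl1 were Nsun3, Atp6ap1 and Lgmn (0.991 to 0.993), and to Fth1 Setd3, Tent4a and Hspa4 (0.980 to 0.985). For Tfrc they were Psmc6, Arf1 and Nsun2 (0.976 to 0.988), for Ncoa4 Cbfb, Rars2 and Ociad1 (0.977 to 0.985), for Slc11a1 Tpcn2, Reln and Slc15a2 (0.988 to 0.990) and for Slc11a2 Nfkb2, Srf and Mllt6 (0.982 to 0.991). The 6 points are the libraries themselves and so share depth and cell make-up, and no test was made.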

How the data were processed

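Poly(A)-selected RNA of liver macrophages was sequenced in 6 libraries, 3 per diet, grouped by the treatment label. A library was treated as 1 mouse, since the design gives n in mice. The submitters' processing notes name mm10 and the tools STAR, STAR-Fusion, HISAT2, StringTie, featureCounts, DESeq and edgeR. Tool versions, roles and the handling of multi-mapped reads were not found in the sources used here. The authors deposited whole read counts, a normalised signal (counts divided by a size factor per library), FPKM, and their own log2 fold change with p-value and adjusted p-value. The signal was not used further.

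Counts were tested in edgeR 4.0.16 (R 4.3.3) after default filtering of low genes and TMM scaling, by the quasi-likelihood test (robust prior), at an adjusted p of 0.05 (Benjamini-Hochberg). The SE is the log2 fold change divided by the root of its F statistic. The hepatocyte score used a prior count of 2. DESeq2 1.42.0 and limma 3.58.1 were alternatives, with other scalings, filters, the non-robust prior, the hepatocyte score as a covariate and libraries left out. Symbols came from GENCODE M21 by identifier (14842 of 14918 matched). No pair of libraries of a group was alike within sampling noise (chi-square divided by its degrees of freedom, 14.2 to 75.2).

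The 10 genes, the iron and marker lists and the alternatives were chosen with earlier results of these data known. The naming rule took the 10 genes, each list's calls or else its 2 other genes of smallest p, and the 3 genes most like each of the 10. Lists of iron genes held 67 symbols, of which Hephl1 and Hjv were not analysed here (Hjv was counted under its older symbol Hfe2). Marker genes not analysed here were 1 of 32 for hepatocytes and 6 of 10 for erythroid cells. Promoters of Slc40a1, Slc11a2 and Hmox1 were not used here.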

Additional observations from a re-analysis of the deposited data

How the results depend on the processing

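None of the 10 genes passed under any of the 16 alternatives except DESeq2, which called 2 (Hamp and Cp). Over all genes the count was 91, but 1206 in DESeq2, 0 with the hepatocyte score as a covariate (959 by unadjusted p under 0.05), 0 when both first replicates were left out (1384), and 0 to 1385 with any single library left out, the highest without normal diet 2. Over the 65 iron genes the count was 1, but 2 with upper-quartile or total-count scaling, no filter or the non-robust prior (Hamp2 added), 11 in DESeq2, 0 with the covariate and without both first replicates, and 0 to 10 with a single library left out. Alas1 was among the calls under every scaling, filter and tool. Hamp and Cp kept a positive sign in all 16, at log2 0.93 to 2.80 and 0.53 to 1.21, with adjusted p of 1.0e-05 to 0.720 and 0.000167 to 0.754.

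Signs turned as follows, on the log2 scale. With the hepatocyte score as a covariate Fth1 was at 0.29, Ncoa4 at 0.088, Slc11a1 at 0.0052, Slc40a1 at -0.17 and Tmprss6 at -0.12. Without both first replicates Fth1 was at 0.12, Ncoa4 at 0.046 and Slc40a1 at -0.072. Ncoa4 was at 0.0047 with total counts. Slc11a2 was at -0.0070 with median-ratio and -0.0054 with upper-quartile scaling, -0.011 without a filter, -0.0020 with the filter of 5 CPM in 3 libraries and -0.0057 in DESeq2. With a single library left out, Slc40a1 ranged from -0.087 to 0.47, Fth1 from -0.15 to 0.066, Ncoa4 from -0.14 to 0.076, Slc11a2 from -0.13 to 0.070, Tfrc from -0.040 to 0.17 and Cd163 from -0.42 to 0.27. The cause was not tested. No paired analysis was possible because the replicate numbers only name the libraries and the labels pair none of them. With 3 libraries per diet and the spread seen here, the 95% intervals of the 8 genes near 0 reach folds of 0.636 to 1.77.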
